A study of Mus musculus with 6 samples.

Results

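The cytosolic ribosomal proteins were followed as transcripts in liver RNA of 3 control and 3 lipophagy mice. All gene symbols were taken that begin with Rpl or Rps followed by a digit or by p or a (as in Rplp0 and Rpsa), without the S6 kinases (Rps6k), the Rps19 binding protein and symbols marked "-ps" as pseudogenes. This gave 87 of the 24346 symbols, 53 of the large 60S subunit and 34 of the small 40S subunit. The ribosomal proteins Fau and Gnb2l1, whose symbols lack the prefix, are given further on as neighbours.

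Both groups were male C57BL/6 mice, 8 weeks old when they began 6 weeks of a diet rich in fat and without choline (CDAHFD), which gives a fatty and inflamed liver. They then received 1 intravenous dose of serotype 8 adeno-associated virus (AAV8) and normal chow for 2 weeks. The virus of the lipophagy group encoded LDTS-eLIR, a lipid droplet-targeting sequence of perilipin 1 joined to an engineered LC3-interacting region of optineurin, so that droplets are handed to autophagosomes. The virus of the control group encoded LDTS-LIR mut, in which that region is mutated, so both groups shared the diet, the virus and the droplet-targeting part, and neither is an untreated or chow-fed liver. The thyroxine-binding globulin promoter limits the adapter to hepatocytes, while the RNA came from whole liver. Poly(A) libraries gave an estimated 23.0 to 34.2 M fragments per liver, and the values are FPKM (fragments counted per kilobase of transcript and per total of mapped fragments), a level per unit of transcript length.

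A cytosolic ribosome consists of a small subunit, which holds the mRNA and reads its codons, and a large subunit, which joins amino acids and releases the chain through an exit tunnel. Nearly all of its proteins are present once per ribosome. Their mRNAs are known for a 5′ terminal oligopyrimidine (TOP) tract, through which mTORC1, the kinase complex that senses nutrients, controls their translation. Liver makes most plasma proteins, and its hepatocytes are rich in ribosomes.

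The start of these genes is shown first because the TOP tract is the feature by which the family is known. Of the tested members, 63 had a RefSeq start site (GRCm38.p6). Of these, 37 (58.7%) held a C followed by at least 4 bases that are C or T, on the sense strand and starting within 10 bases of an annotated start. Where a gene had several start sites, a run at any of them counted. The same run was found in 37.5% of the 8819 tested genes with a start site. The windows of 30 bases run from 12 bases before the start to 18 bases from it, and capitals mark the run. Where a gene had several start sites, the window shows the one with the longest run. Rpl27a, Rpl35, Rpl7a and Rps6 had long runs, Rps2 a short one, and for Rps3 and Rplp0 no such run started within 10 bases of an annotated start, which says nothing of the factors that read them.
Rpl27a, chr7:109519183-109519212 (+): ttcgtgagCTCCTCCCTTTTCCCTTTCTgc
Rpl35, chr2:39005114-39005143 (-): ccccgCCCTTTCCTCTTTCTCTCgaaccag
Rpl7a, chr2:26910795-26910824 (+): ccCTCTTCTTTCTTTCTCCagcagccgagc
Rps6, chr4:86857350-86857379 (-): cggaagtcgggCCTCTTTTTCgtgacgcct
Rps2, chr17:24720051-24720080 (+): cagtcgagatctcgcgCTTCTTggagcact
Rps3, chr7:99483692-99483721 (-): gcaagggtcgccgcgctgcgcggcgtcatt
Rplp0, chr5:115559455-115559484 (+): ttcgggtttcgaggaccgcctggttctcct

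The members were among the most abundant transcripts of the liver. Of the 84 members that passed the filter of a mean of at least 0.5 FPKM, 75 averaged 100 FPKM or more, and the median of their means was 549.6 FPKM, against 5.82 FPKM over all 11493 tested genes. The highest was Rpl41, the smallest protein of the ribosome, with 1188, 1419.8 and 1543 FPKM in control livers 1, 2 and 3 and 1738, 1740.4 and 1356 FPKM in lipophagy livers 1, 2 and 3. Rplp1 of the stalk followed with 1063, 1261 and 1406 against 1628, 1536 and 1256 FPKM, Rps29 with 988, 1182 and 1322 against 1349, 1219 and 1208 FPKM and Rpl10 with 992, 1121 and 1174 against 1399.5, 1269 and 1268 FPKM. The ranges of Rplp1, Rps29 and Rpl10 over the 6 livers overlapped. Within each liver Rplp1 lay above Rps29, while the place of Rpl10 beside either of them was not the same in all livers.

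No member passed the test between the groups, while on the deposited scale all 84 tested members had a fitted log2 change above 0, which median scaling kept and the TPM scale and quantile normalization did not. Of 84 tested members 0 had an adjusted p below 0.05 (limma on log2(FPKM + 1), Benjamini-Hochberg over all tested genes), against 3 of 11493 genes, or 0.0261%, and the lowest adjusted p of a member was 0.19. At an unadjusted p below 0.05, 23 members were higher and 0 were lower, where 11.5% of all tested genes were higher and 7.97% were lower. The fitted log2 change was above 0 for 84 of 84 members, against 54.5% of all tested genes, with a median of 0.22 (quartiles 0.16 and 0.27), against 0.020 over all tested genes. This direction depended on the scaling: with each liver scaled to the same sum (TPM scale) 52 members were higher and 32 lower, with a median of 0.035, and after quantile normalization 50 were higher and 34 lower, with a median of 0.017, while scaling each liver to the same median of tested genes left 84 higher, with a median of 0.22. In bulk tissue, fewer cells of a type and less RNA per cell cannot be told apart.

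For most members the livers of the groups overlapped. All lipophagy livers lay above all control livers for 20 of 84 members, against 15.4% of all tested genes, and all lay below for 0 members, against 10.8%. The order of livers was much the same from gene to gene. Control liver 1 was lowest for 77 of the 84 members, control liver 3 was the highest control for 78, lipophagy liver 1 was the highest of all for 67, and lipophagy liver 3 was the lowest of its group for 76. Lipophagy liver 3 lay below control liver 3 for 60 members, lipophagy liver 2 for 12 and lipophagy liver 1 for 3. The gap between control livers 3 and 1 had a median of 0.28 (log2), which is larger than the median change between the groups, and it exceeded the member's own change for 65 members. The number of members higher at an unadjusted p below 0.05 moved with single livers. Leaving out control liver 1, 2 or 3 gave 2, 4 or 35 of 84 members, against 8.32%, 8.1% or 7.84% of all tested genes. Leaving out lipophagy liver 1, 2 or 3 gave 2, 3 or 42 members, against 6.96%, 9.41% or 14% of all tested genes. The share of members was thus above that of all genes without control liver 3 or lipophagy liver 3, and below it without any of the other 4 livers. The number with an adjusted p below 0.05 was 0 in each of these fits.

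**Figure D1:**
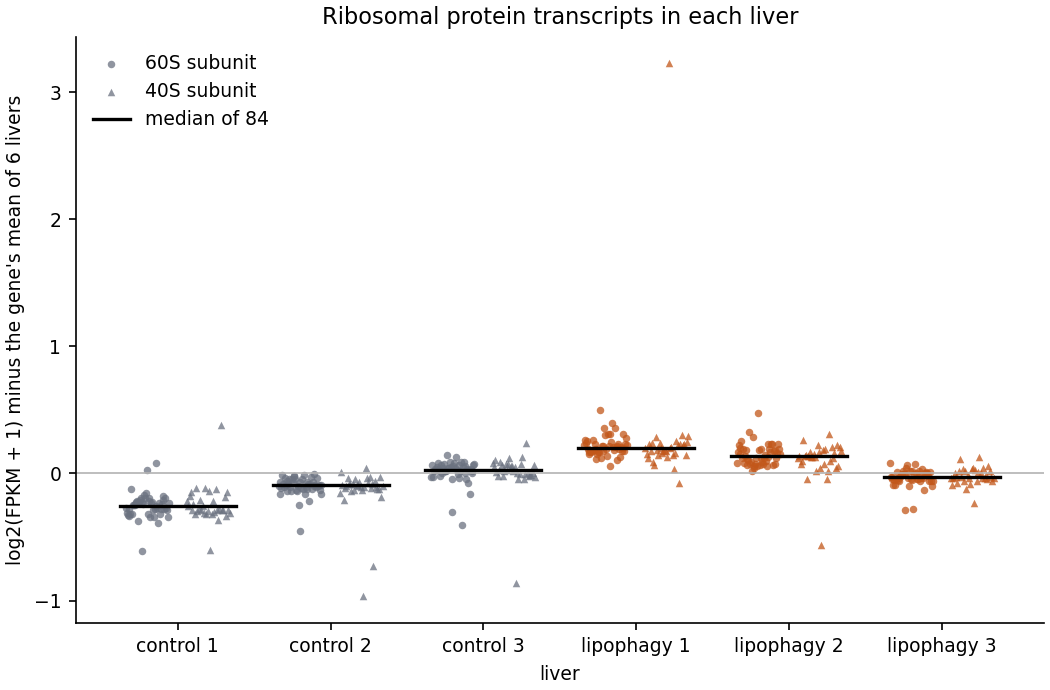
Difference of log2(FPKM + 1) from each gene's mean of the 6 livers (vertical axis) in each liver (horizontal axis) for the 84 tested ribosomal protein genes, circles for the 60S and triangles for the 40S subunit, with a bar at the median of each liver. The medians run from -0.26 in control liver 1 to 0.029 in control liver 3, and are 0.20, 0.13 and -0.027 in lipophagy livers 1, 2 and 3. The single high point of lipophagy liver 1 is Rps27.

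The summed level gave the same picture and shows what the scaling does. The 87 members summed to 38658, 43386 and 47331 FPKM in control livers 1, 2 and 3 and to 53174, 50632 and 45617 FPKM in lipophagy livers 1, 2 and 3. Lipophagy liver 3 was thus below control liver 3, and the groups overlapped. The means were 43125 ± 4343 and 49807 ± 3845 FPKM (SD, n = 3 each), a ratio of 1.15. The FPKM of all genes also summed to more in lipophagy livers, 742274 ± 36831 against 653711 ± 29386 FPKM, a ratio of 1.14. As a share of all FPKM, the members took 6.21%, 6.60% and 6.95% in control livers and 6.80%, 6.89% and 6.42% in lipophagy livers, and the ratio of the mean shares was 1.02. The TPM scale moved the median of all tested genes by -0.15 (log2), to -0.13. On it 61.9% of the members were above 0, against 22.6% of all tested genes, and 0 members were higher at an unadjusted p below 0.05, against 2.05% of all tested genes. All 84 tested members lay above the median of all tested genes on the TPM scale, with a median distance of 0.16, whereas after quantile normalization the median of the members, 0.017, was close to that of all tested genes, 0.0074.

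**Figure D2:**
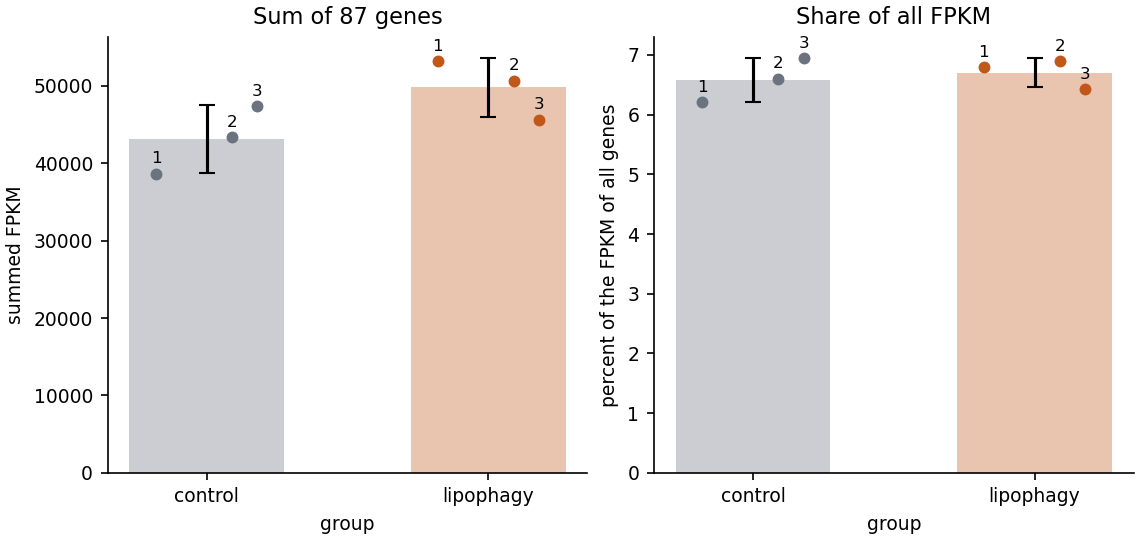
Left, summed FPKM of the 87 genes; right, the same sum as a percent of the FPKM of all genes. Bars are group means from 0, error bars the SD (n = 3) and points the livers with their numbers. The left bars are 43125 and 49807 FPKM, the right bars 6.59% and 6.71%.

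The 60S and 40S members had the same median. The 60S members had a median log2 change of 0.22 over 50 tested genes (range 0.12 to 0.48), and the 40S members 0.22 over 34 (range 0.067 to 1.62). At an unadjusted p below 0.05, 12 of the 60S and 11 of the 40S members were higher, against 11.5% of all tested genes. Summed, the 60S members were 24615 ± 2538 against 28538 ± 2333 FPKM and the 40S members 18510 ± 1805 against 21269 ± 1514 FPKM. Of the log2 changes of single members, 73 of 84 lay within 0.1 of their median, a share that was not counted for other genes. The quartiles were 0.16 and 0.27 for the members. They were 0.091 and 0.29 for the 771 other genes at 100 FPKM or above, and -0.10 and 0.15 for all tested genes. To see whether any member departed from the others, each liver was also scaled to the geometric mean of the tested members, an analysis chosen after the data were seen. On that scale 0 of 84 members had an unadjusted p below 0.05 in either direction, against 22.1% of all tested genes, and 0 had an adjusted p below 0.05 (limma), against 0.887%. With single livers left out 0 to 3 members had an unadjusted p below 0.05, against 12.5% to 30.9% of all tested genes. The members themselves set this scale, so these counts are not compared further.

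Other groups of genes also had a median above 0 on the deposited scale. The 77 mitochondrial ribosomal proteins (Mrpl and Mrps), which make the separate ribosome of mitochondria, had a median change of 0.19, with 75 higher and 2 lower. Of them 33 were higher at an unadjusted p below 0.05, against 11.5% of all tested genes, and 0 were called. On the TPM scale they had a median of 0.014 with 46 higher. The 39 tested proteasome subunits (Psma to Psmd), which degrade proteins, had a median of 0.14, with 35 higher and 4 lower, which turned to -0.037 with 15 higher on the TPM scale. The 771 other genes at 100 FPKM or above had a median of 0.19, with 654 higher and 117 lower. Of these, 282 were higher at an unadjusted p below 0.05, against 11.5% of all tested genes. On the TPM scale their median was 0.011 with 418 higher. Other genes of at most 1000 bases had a median of 0.069 over 2263 genes, and those among them at 100 FPKM or above 0.20 over 324, which were -0.091 and 0.014 on the TPM scale. The median transcript length was 704 bases for the tested members and 2010 bases for all tested genes. With the trend of each liver on transcript length and GC content taken off, the median of the members was 0.17 and 84 of 84 stayed above 0.

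**Figure D3:**
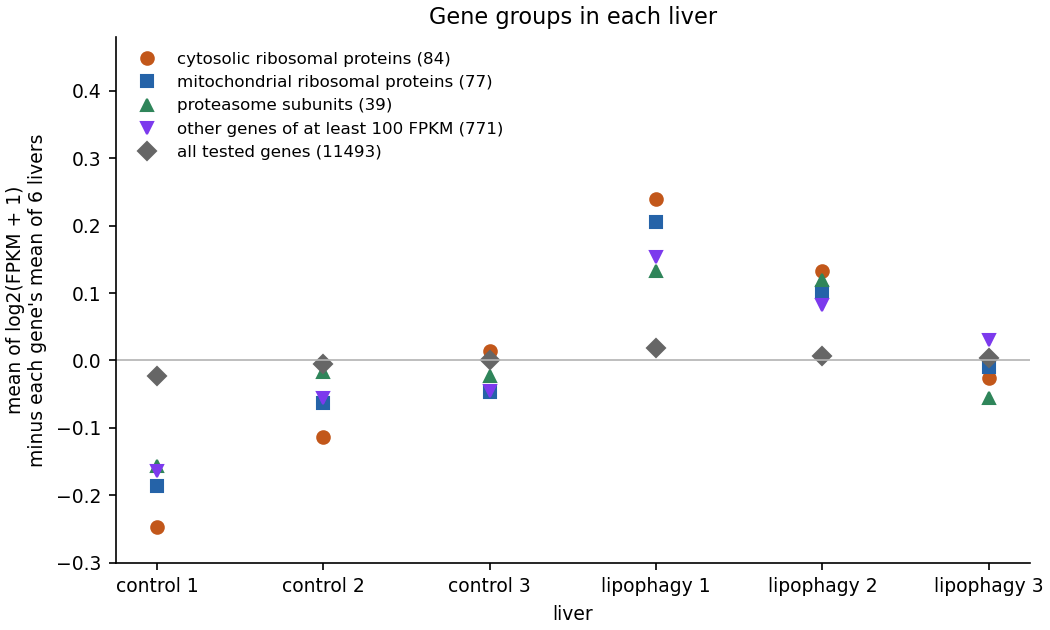
Mean over each group of genes of log2(FPKM + 1) minus the gene's mean of the 6 livers (vertical axis), for each liver (horizontal axis). The ribosomal proteins run from -0.25 in control liver 1 to 0.24 in lipophagy liver 1, the mitochondrial ribosomal proteins from -0.19 to 0.20, and all tested genes stay between -0.023 and 0.019.

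The stalk binds the elongation factors on the large subunit and consists of Rplp0, the paired proteins Rplp1 and Rplp2, and Rpl12 at its base. Rplp0, the base protein of the stalk, had 426, 476 and 529 FPKM in control livers 1, 2 and 3 and 613, 613 and 499.6 FPKM in lipophagy livers 1, 2 and 3, a log2 change of 0.27 (SE 0.12, limma adjusted p = 0.27). Lipophagy livers 1 and 2 lay above all controls and lipophagy liver 3 lay between control livers 2 and 3. Rpl12 had 667, 774 and 852 against 1003, 967 and 824 FPKM, a change of 0.29 (SE 0.12, limma adjusted p = 0.25), and Rplp2 had 565, 595 and 700.1 against 774, 739.9 and 637 FPKM, a change of 0.21 (SE 0.12, limma adjusted p = 0.35). All 4 stalk genes overlapped between the groups.

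Rpl5 and Rpl11 carry the 5S rRNA into the large subunit, and are known for binding Mdm2, the ubiquitin ligase of p53, when ribosome assembly is disturbed. Rpl5 had 183, 207 and 216 FPKM in control livers 1, 2 and 3 and 255, 261 and 223 FPKM in lipophagy livers 1, 2 and 3, and its groups did not overlap. Its log2 change was 0.29 (SE 0.10, limma adjusted p = 0.2), or 0.10 on the TPM scale. Rpl11 had 745, 893 and 913 against 1104, 1090.4 and 905 FPKM, a change of 0.28 (SE 0.12, limma adjusted p = 0.26), with lipophagy liver 3 below control liver 3.

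Rpl3, Rpl8 and Rpl10 lie close to the site where peptide bonds are formed. Rpl3 had 301, 281 and 324 FPKM in control livers 1, 2 and 3 and 428, 349 and 339 FPKM in lipophagy livers 1, 2 and 3, with every lipophagy liver above every control liver. Its change was 0.29 (SE 0.11, limma adjusted p = 0.22). Rpl10, encoded on the X chromosome at chrX:74270812-74273135 (mm10), also did not overlap, with 1096 ± 93.5 against 1312 ± 75.7 FPKM (mean ± SD, n = 3 each) and a change of 0.26 (SE 0.10, limma adjusted p = 0.23). Rpl8 overlapped, with a change of 0.17 as deposited and -0.0090 on the TPM scale. Of the genes at the exit tunnel, Rpl4 had a log2 change of 0.24, Rpl39 of 0.22 and Rpl17 of 0.17, and Rpl17 stood at -0.011 on the TPM scale. None of the 8 tunnel and rim genes was separated between the groups, where 15.4% of all tested genes were higher without overlap.

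On the small subunit, Rps2, Rps3 and Rpsa line the path of the mRNA, and Rps23 takes part in decoding. Rps3 had 168, 200.4 and 211 FPKM in control livers 1, 2 and 3 and 259, 269 and 211 FPKM in lipophagy livers 1, 2 and 3. The lowest lipophagy liver lay just above the highest control liver, so the groups did not overlap. Its change, 0.35 (SE 0.13, limma adjusted p = 0.21), was the fourth highest of the members. Rpsa, known also as a laminin receptor, had 386 ± 38.3 against 473 ± 54.9 FPKM (mean ± SD, n = 3 each), a change of 0.29 (SE 0.12, limma adjusted p = 0.24). Rps2 had 887 ± 95.4 against 1059 ± 79.6 FPKM (mean ± SD, n = 3 each), a change of 0.26 (SE 0.11, limma adjusted p = 0.25), and Rps23 had 663 ± 43.9 against 714 ± 57.3 FPKM (mean ± SD, n = 3 each), a change of 0.11 as deposited and -0.077 on the TPM scale.

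Rps6, the substrate of the S6 kinases and a common readout of mTORC1 at the protein level, had 311, 324 and 349.9 FPKM in control livers 1, 2 and 3 and 412, 365 and 369 FPKM in lipophagy livers 1, 2 and 3. All lipophagy livers were above all controls, by a log2 change of 0.22 (SE 0.09, limma adjusted p = 0.25), which was 0.035 on the TPM scale. The FPKM give its mRNA, not its phosphorylation. Rps27a, made as a fusion with ubiquitin, had 487, 565 and 608 against 699.6, 691 and 619 FPKM and likewise did not overlap, with a change of 0.28 (SE 0.11, limma adjusted p = 0.23).

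The members with the smallest change were Rps4l, Rps28, Rps16, Rps12 and Rps23. Rps28 and Rps16 were the members that were highest in lipophagy liver 3, in place of lipophagy liver 1: Rps28 had 568, 588 and 654 against 637, 601 and 678 FPKM and Rps16 had 556, 570.5 and 629.9 against 629.5, 583 and 654 FPKM. Their changes were 0.083 and 0.089 as deposited and -0.10 and -0.094 on the TPM scale. Rps12 had a log2 change of 0.10, with -0.078 on the TPM scale. Rps29, among the most abundant members, had a log2 change of 0.12, or -0.063 on the TPM scale.

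**Figure D4:**
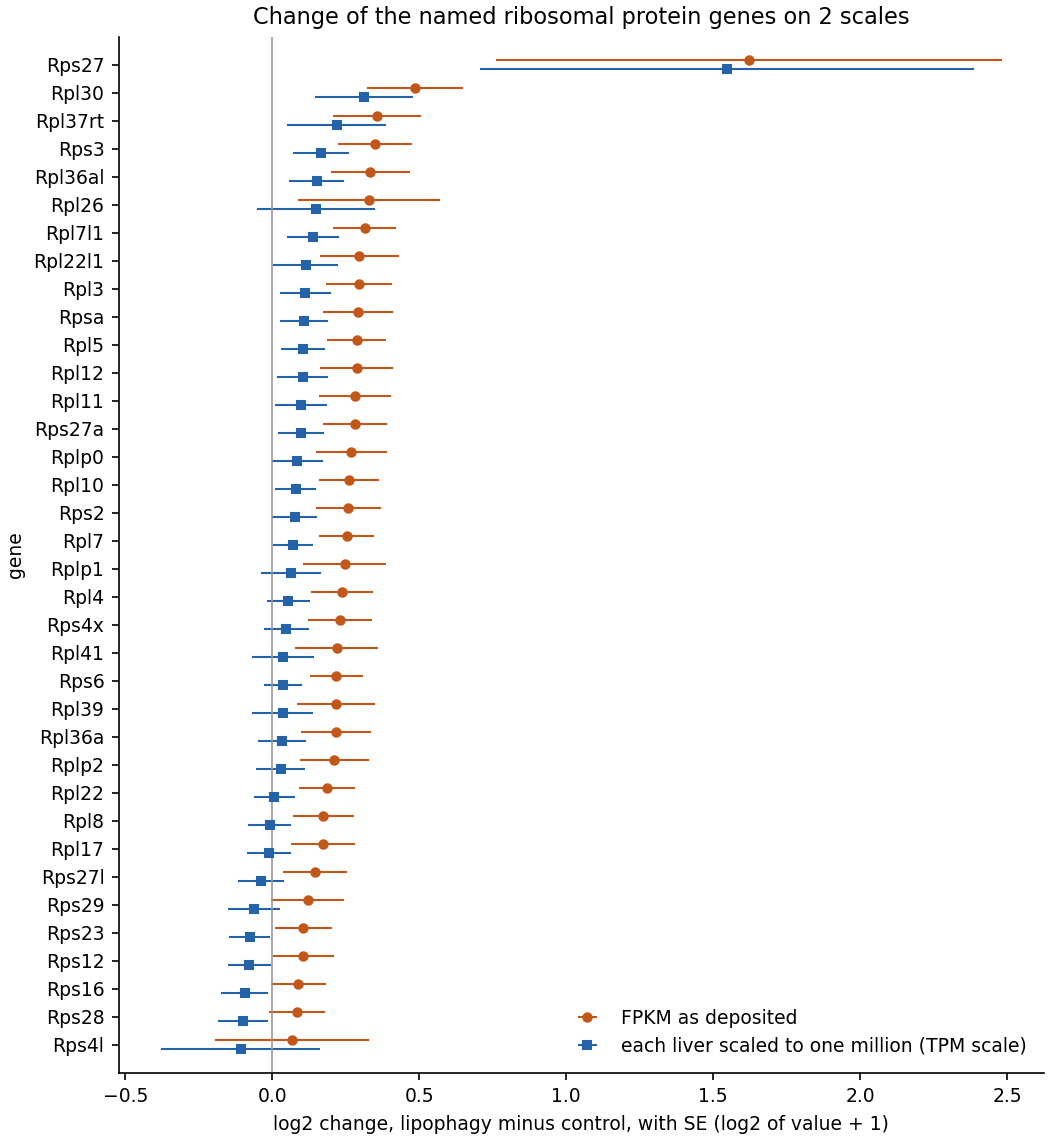
Log2 change (lipophagy minus control, horizontal axis) with its standard error for 36 tested members that are named by rule, from FPKM as deposited (circles) and with each liver scaled to the same sum (squares). The circles of all 36 lie above 0, from 0.067 (Rps4l) to 1.62 (Rps27), while 9 of the squares lie below 0.

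Several members have a paralogue, a second gene of closely related sequence, of which Rps4l and Rpl37rt are annotated as transcribed processed pseudogenes (GENCODE vM21). Rpl36al exceeded Rpl36a in every liver, whereas Rpl3l, Rpl7l1, Rpl10l, Rpl39l and Rps4l were far below Rpl3, Rpl7, Rpl10, Rpl39 and Rps4x. Rpl36al had 519, 606 and 642 against 866, 729 and 641 FPKM, a change of 0.33 (SE 0.13, limma adjusted p = 0.24), and Rpl36a 388, 440.2 and 494 against 562, 513 and 459 FPKM, a change of 0.22. Rpl22l1 exceeded its relative Rpl22 in every liver, with 129.9, 153 and 177 against 183, 212 and 168 FPKM for Rpl22l1 and 50.5, 54.6 and 60.5 against 67.3, 63.3 and 58.2 FPKM for Rpl22. Rpl7l1 had 22.9, 27.3 and 24.9 against 34.9, 31.9 and 27.6 FPKM, did not overlap and had a log2 change of 0.31 (SE 0.11, limma adjusted p = 0.2), beside 521, 564 and 570.2 against 695, 680.1 and 599 FPKM for Rpl7, which did not overlap either. Rps4l, a relative of Rps4x, had 27.4, 12.2 and 24.8 against 19.7, 24.2 and 20.3 FPKM, with control liver 2 the lowest. Its group means were 21.4 and 21.4 FPKM and its fitted change 0.067, which went to -0.28 without control liver 2 and to -0.021 without lipophagy liver 2. Rps27l, a p53 target, had 482, 578 and 544 against 648, 590.3 and 537 FPKM, a change of 0.15 as deposited and -0.037 on the TPM scale. Rpl37rt, a copy of Rpl37, had 4.62, 3.57 and 3.01 against 5.81, 5.23 and 4.09 FPKM and a change of 0.36.

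Rpl10l, Rpl39l and Rpl3l did not pass the filter on low values. Rpl10l, known from testis, was listed at 0 in all 6 livers. Rpl39l was listed at 0 in control liver 1 and lipophagy liver 1, and its other values, 0.0661, 0.0463, 0.138 and 0.0637 FPKM, came to 1 or 2 fragments. Rpl3l, known from muscle, came to 1, 2 and 3 fragments in control livers and to 1, 3 and 2 in lipophagy livers. No difference of Rpl39l or Rpl3l was detectable at this depth.

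The highest fitted log2 changes, of Rps27 and Rpl30, belonged to members with a nearly identical copy elsewhere in the genome. Of the members, 79 had at least 1 transcript of another gene in the annotation (GENCODE vM21, GRCm38) that matched their coding sequence at 95% identity or more over at least 90% of its length, with a median of 4 such genes and a maximum of 56. Such copies are often processed pseudogenes, which arise from reverse-transcribed mRNA. For Rps27, Rpl26, Rpl30 and Rpl34 such a copy was listed at a typical ribosomal level while the named gene was not, so their values can depend on how reads that match both were divided, which the sources used here do not state.

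Rps27 (chr3:90212522-90213651, mm10) had 2.37, 1.62 and 1.81 FPKM in control livers 1, 2 and 3 and 46.8, 2.46 and 3.35 FPKM in lipophagy livers 1, 2 and 3, so only lipophagy liver 1 stood apart. Its log2 change of 1.62 (SE 0.86, limma adjusted p = 0.33) rested on that liver and was 0.41 without it. The copy Rps27rt (chr9:114982366-114982739), itself a member, held 745, 895 and 916 against 1019, 1049 and 925 FPKM, a change of 0.23 (SE 0.11, limma adjusted p = 0.29), and the 255 bases of both coding sequences were identical, so that a read of 100 bases inside them matches both. The sum of the 2 genes was 854 ± 92.9 against 1015 ± 75.6 FPKM, a log2 ratio of 0.25.

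Rpl30 had 28.7, 20.2 and 22.5 FPKM in control livers 1, 2 and 3 and 34.8, 39.4 and 27.1 FPKM in lipophagy livers 1, 2 and 3, a change of 0.48 (SE 0.16, limma adjusted p = 0.19), and Gm12191 (chr11:49678710-49679057), a processed pseudogene, 483, 544 and 564 against 691, 599 and 591 FPKM. They differ by G96A (position from the first base of the coding sequence, the member's base first), in a window that begins at coding base 81 and holds the difference in capitals.
Rpl30: cgtgctgggctacaaGcagactctgaagat
Gm12191: cgtgctgggctacaaAcagactctgaagat
Of the 249 placements of a 100-base read on the 348 coding bases, 153 hold no difference. The mate of a read and reads reaching outside the coding bases were not counted. Rpl30 with Gm12191 summed to 554 ± 38.8 against 660.5 ± 57.2 FPKM, a log2 ratio of 0.25.

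Rpl26 had 37.2, 56.7 and 63.6 against 81.6, 70.3 and 46.9 FPKM, with lipophagy liver 3 below control livers 2 and 3, and a change of 0.33 (SE 0.24, limma adjusted p = 0.46). Gm15772 (chr5:3236431-3236868), a processed pseudogene that differs by C177T and T288C, held 774, 865 and 939 against 1137, 1055 and 934 FPKM. The windows around these positions are shown with the differing base in capitals.
Rpl26, from coding base 162: agttcaggttgttcgCggacactacaaagg
Gm15772, from coding base 162: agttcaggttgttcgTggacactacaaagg
Rpl26, from coding base 273: tggcacaaccgtccaTgtgggcatccaccc
Gm15772, from coding base 273: tggcacaaccgtccaCgtgggcatccaccc
The named gene took 5.88% of the summed level of the pair, and the sum had a log2 ratio of 0.28.

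Rpl34 had 54.8, 61.8 and 65.9 against 79.3, 73.2 and 52.4 FPKM, the lowest of all in lipophagy liver 3, and Rpl34-ps1 (chr6:71124610-71124963), which differs by T132C and C318G, 483, 551 and 595 against 669, 704 and 628 FPKM. Rpl34 itself had a log2 change of 0.15 (SE 0.15, limma adjusted p = 0.61), Rpl34-ps1 of 0.30 (SE 0.10, limma adjusted p = 0.2), and their sum had a log2 ratio of 0.28. Each of the 4 sums had a log2 ratio of group means between 0.25 and 0.28. The named gene made up 1.04% to 9.64% of each sum, so the sums mostly repeat the changes of the copies, 0.23 to 0.30. For this reason the sums do not show how reads were divided. The fitted changes of the named genes, a different measure on log2(FPKM + 1), spread from 0.15 to 1.62. Without these 4 genes, left out after the data were seen, the median change of the members was 0.22.

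**Figure D5:**
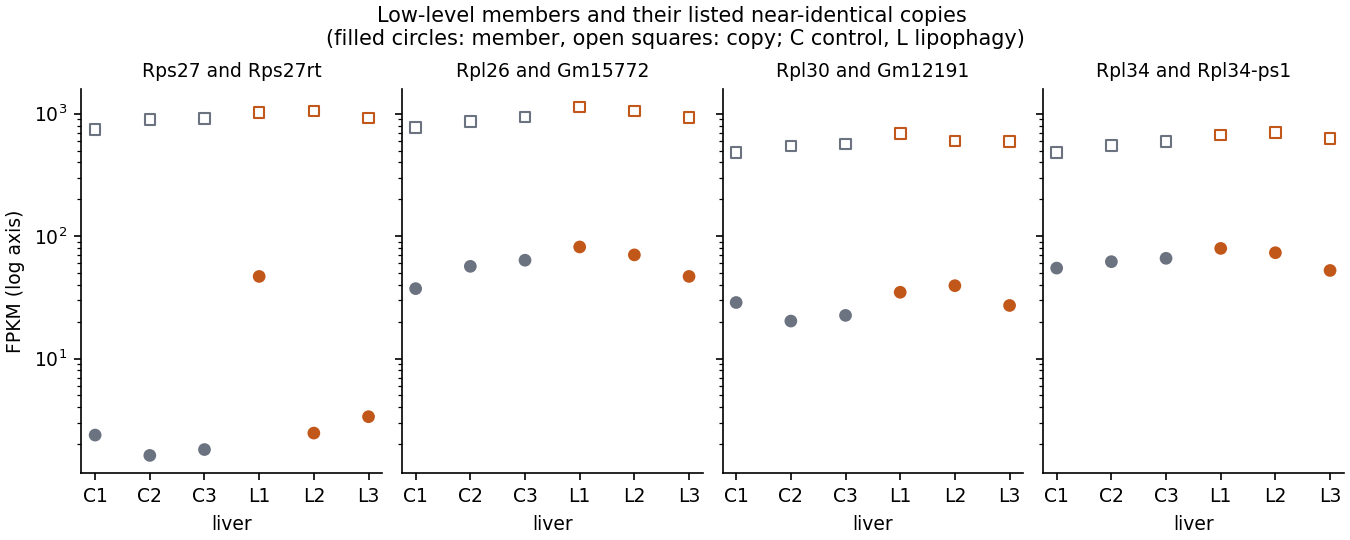
FPKM on a log axis (vertical) in each liver (horizontal) of 4 low-level members (filled circles) and their listed near-identical copies (open squares). The copies stay between 483 and 1137 FPKM, and Rps27 reaches 46.8 FPKM in lipophagy liver 1 against 1.62 to 3.35 FPKM in the others.

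Other genes of translation were taken from lists written for this comparison, and 0 of them passed the test at an adjusted p below 0.05 (limma). Of 33 initiation factors, 31 were higher and 2 lower, with a median of 0.17 and 14 higher at an unadjusted p below 0.05, against the 11.5% of all genes, but 16 were higher on the TPM scale, with a median of -0.00073. The highest log2 change was that of Eif2b3, a subunit of the exchange factor eIF2B, with 7.44, 8.15 and 7.35 against 12.5, 9.67 and 9.91 FPKM and a change of 0.43 (SE 0.11, limma adjusted p = 0.14). The lowest was Eif3j1, which had 16.7 FPKM in control liver 1 and at most 0.0555 FPKM in the other livers. The 10 elongation and termination factors were all higher, with a median of 0.21, from Eef1d at 0.089 to the recycling factor Abce1 at 0.25, and 7 were higher on the TPM scale. Of 20 other TOP mRNAs, 18 were higher, with a median of 0.17, against 9 and -0.010 on the TPM scale. Fau, made as a fusion with a ubiquitin-like protein and part of the 40S subunit, had 486, 471 and 542 against 696, 602 and 533 FPKM, a change of 0.28 (SE 0.12, limma adjusted p = 0.25). Gnb2l1, the scaffold RACK1 on the 40S subunit, had 283, 325 and 345 against 410.3, 403 and 334 FPKM, a change of 0.27 (SE 0.12, limma adjusted p = 0.26), so that both ribosomal proteins outside the prefix overlapped between the groups like most members. Vim, a cytoskeletal protein whose mRNA also carries the tract, was the lowest of this list, with 33.8, 35.3 and 42.7 against 23.9, 30.6 and 30.6 FPKM and a change of -0.38 (SE 0.13, limma adjusted p = 0.19).

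Factors that assemble ribosomes and control their synthesis had lower medians than the members on the deposited and TPM scales, but higher ones after quantile normalization, 0.098 and 0.045 against 0.017. Of 50 assembly factors, 44 were higher and 6 lower, with a median of 0.13 that was -0.031 on the TPM scale, from Ubtf, an RNA polymerase I factor, at -0.13 to Utp18 at 0.31. Of 21 genes of mTORC1 and S6 kinase control, 15 were higher and 6 lower, with a median of 0.11 that was -0.075 on the TPM scale. At an unadjusted p below 0.05, 0 were higher and 1 was lower, against 11.5% and 7.97% of all tested genes. The exception in size was Myc, a transcription factor of ribosomal genes, with 11.6, 6.14 and 15.1 FPKM in control livers 1, 2 and 3 and 1.63, 2.11 and 1.2 FPKM in lipophagy livers 1, 2 and 3, so that every lipophagy liver was below every control. Its log2 change was -2.11 (SE 0.27, limma adjusted p = 0.071), and it passed the test on the TPM scale, with the replicate number as a block and when control liver 2 was left out. Pdcd4, an inhibitor of eIF4A, was the highest of this list with 28.4, 22.8 and 26.3 against 37.2, 31 and 27.1 FPKM and a change of 0.28 (SE 0.13, limma adjusted p = 0.28). Of 16 tested factors that receive or check the nascent chain, 15 were higher, with a median of 0.20, or 10 and 0.042 on the TPM scale, and Srp68 of the signal recognition particle had 19.1, 19.1 and 18.6 against 31.7, 22.8 and 27 FPKM, a change of 0.49 (SE 0.12, limma adjusted p = 0.13). The lowest of them, Zfp598, which marks collided ribosomes, had a log2 change of -0.073.

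Markers of liver cells also differed between the livers. The 8 hepatocyte markers (such as Alb and Ttr) were all expressed, 7 were higher (5 on the TPM scale), and they summed to 57874 to 65662 FPKM in control and 70863 to 92707 FPKM in lipophagy livers, highest in lipophagy liver 1 and without overlap, while as a share of all FPKM, 8.80% to 10.4% in control and 9.65% to 11.8% in lipophagy livers, they overlapped. Of 6 macrophage markers 5 were lower (6 on the TPM scale), with a median of -0.27, and 4 were lower at an unadjusted p below 0.05, against 7.97% of all tested genes, and 0 at an adjusted p below 0.05 (limma). For 4 of them all lipophagy livers lay below all control livers, against 10.8% of all tested genes, while the sums of the 6, 379 to 552 and 379 to 505 FPKM, overlapped. All 5 red blood cell markers were higher, with sums of 109 to 132 FPKM in control and 117 to 478 FPKM in lipophagy livers, the highest in lipophagy liver 2. The sums of the other lists, all of which overlapped apart from lymphocytes, were 90.4 to 115 against 101 to 125 FPKM for Kupffer cells, 131 to 149.7 against 108 to 143 for stellate cells, 19.9 to 24.8 against 24.0 to 39.3 for sinusoidal endothelium, 137 to 247 against 92.0 to 196 for bile duct, 17.4 to 29.9 against 14.8 to 17.5 for neutrophils and 4.79 to 5.97 against 3.80 to 4.50 for lymphocytes. No marker in the table was at 0 in all livers, and the part of these cells in the levels of the ribosomal proteins was not tested.

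Within the members, the log2 change was set against the start-site run and the length. The 37 members that held it had a median log2 change of 0.21 (quartiles 0.15 and 0.23), and the 26 without it 0.24 (quartiles 0.18 and 0.28), which is given as a description. By transcript length, the median was 0.21 over the 16 tested members of at most 500 bases, 0.22 over the 13 up to 600 bases, 0.18 over the 23 up to 800 bases and 0.22 over the 32 above 800 bases.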

How the data were processed

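Liver RNA of 3 control and 3 lipophagy mice was sequenced from stranded poly(A) libraries as paired reads of 100 bases. The authors deposited FPKM per gene symbol and liver, already scaled to transcript length and mapped fragments. The submitters' processing notes name TopHat2 2.0.13, Bowtie2 2.2.3, SAMtools 0.1.19, Cufflinks 2.2.1 and mm10, and the annotation is not given in the sources used here. Rows that share reads with a copy can be misassigned at that step.

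From these values log2(FPKM + 1) was computed, and the 11493 genes that averaged 0.5 FPKM or more were fitted in R 4.3.3 with limma 3.58.1 (intensity trend, two-sided, no covariates, Benjamini-Hochberg, threshold 0.05). A change on this scale understates that of low genes. P-values measure the spread between these 6 livers. Copies were searched with blastn 2.17.0. Depth came from the steps of low FPKM values and GENCODE lengths, with 150 bases taken off, and covers counting error only. The fit was tested on simulated data. Members, lists and the naming rule (6 largest and 6 smallest changes, 5 highest levels, genes of known roles, paralogues and, of each list, its extremes) were chosen with earlier results of these data known, and some genes that the rule names are not reported here. Alternatives were other pseudocounts, filters, scalings, a length and GC correction, weights, a replicate block and each liver left out.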

Additional observations from a re-analysis of the deposited data

How the results depend on the processing

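No member passed an adjusted p of 0.05 (limma) in the main analysis or in any of the 18 alternatives. The number of all genes called, 3, was 1 without a filter, 104 on the TPM scale, 5 with the length and GC correction and 39 with quality weights, and 1 to 11 with single livers left out. The replicate block gave 43 genes and 33 with the length and GC correction, and 8 and 13 of 84 members higher at an unadjusted p below 0.05, against 9.86% and 10.1% of all tested genes, so that 8 members were no larger a share than that of all genes. Livers of the same number had correlated deviations of 0.25, 0.23 and -0.057, so the numbers were not taken to pair the livers, and control liver 3 went best with lipophagy liver 2. The number of other translation genes called was 1 (Myc) on the TPM scale and with the replicate block, and 0 to 1 with single livers left out. The median of the members was 0.035 on the TPM scale and 0.017 after quantile normalization, with 52 and 50 members higher, and otherwise between 0.17 and 0.22 with all livers, and between 0.13 and 0.29 with single livers left out. The ratio of summed levels was 1.02 on the TPM scale, 1.16 with listed copies added or the median scaled, and 1.10 to 1.21 with single livers left out.

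Of 648 values of 36 named members, 22 changed sign. On the TPM scale they were -0.011 (Rpl17), -0.0090 (Rpl8), -0.078 (Rps12), -0.094 (Rps16), -0.077 (Rps23), -0.037 (Rps27l), -0.10 (Rps28), -0.063 (Rps29) and -0.11 (Rps4l). After quantile normalization they were -0.072 (Rpl17), -0.0039 (Rpl39), -0.032 (Rpl8), -0.024 (Rplp2), -0.089 (Rps12), -0.12 (Rps16), -0.14 (Rps23), -0.066 (Rps27l), -0.13 (Rps28), -0.029 (Rps29) and -0.033 (Rps4l). With single livers left out, Rps4l ranged from -0.28 (control liver 2) to 0.28 (control liver 1), and it was -0.021 with lipophagy liver 2 left out. Both scalings change the total of a liver by construction. Depth limits Rpl3l and Rpl39l.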
